A study of Mus musculus with 19 samples.

Results

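XY mice with testes (XYM, 5 mice) were compared with XY mice with ovaries (XYF, 4 mice) over the autosomal genes that their spleen cells expressed. A gene was taken when its level was at least 0.5 RPKM, a read density corrected for gene length and library size, in at least 4 of these 9 mice. This gave 12815 of the 23975 autosomal genes that the deposited table lists, which holds 27179 genes in all. The choice used the level of a gene and not its difference between the groups. Of the 12815 genes, 11585 were at that level in all 9 mice and 213 in exactly 4. The level was met in XYM mice alone by 32 genes and in XYF mice alone by 8.

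The study used the 4 core genotypes cross (FCG), which separates the kind of gonad from the sex chromosomes, and sequenced polyA RNA of splenocytes. Every mouse, in each group, had been immunized with heat-killed Streptococcus pneumoniae (HKSP, the unencapsulated strain R36A) and was killed 1 week later. Fathers carried the transgene Tg(Sry)2Ei and the deletion Sry dl1Rlb on the B6.Cg background, and mothers were C57BL/6J. The Y chromosome of both XY groups lacked Sry, the gene that starts testis development, and XYM mice carried Sry as a transgene on autosome 3 while XYF mice did not. Testes, the hormones they make and the transgene with its neighbourhood on autosome 3 were inherited together, so their effects cannot be told apart. Mice with 2 X chromosomes, with testes (XXM, 5 mice) or ovaries (XXF, 5 mice), stand beside the XY mice where they show how a gene behaved. The records give no age, no hormone level and no batch. Sample titles number all mice with ovaries in a series of their own and all mice with testes in another, XX and XY alike. What these numbers stand for is not stated, so anything that ran with them cannot be told apart from the gonad either. No unimmunized mouse was sequenced, and red blood cells had been lysed before RNA was taken.

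The spleen filters blood in its red pulp, where macrophages break down old red cells and recycle their iron, and in mice the red pulp also makes new red cells. Its white pulp holds B cells in follicles and in the marginal zone, T cells and dendritic cells, which together answer to particles from the blood such as bacteria. Gonadal hormones reach these cells through nuclear receptors. Androgens are known to restrain the formation of B and T cells, and estrogens to raise red cell formation in the mouse spleen.

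The library sizes ran from 11263738 reads in XYF F6 to 19961975 reads in XYM 13. Values of single mice below are always in the order F6, F7, F8 and F9 for XYF and 12, 13, 15, 16 and 9 for XYM. The labels were first checked against the sex-linked genes. Sry had 0 reads in each XYF mouse and 119, 88, 43, 119 and 29 reads in the XYM mice. Xist, the RNA that coats an inactive X chromosome, was at most 0.0524 RPKM in the XY mice and at least 23.9 RPKM in the XX mice. Ddx3y, a helicase gene of the Y chromosome, lay between 30.8 and 46 RPKM in XYF and between 42.8 and 60 RPKM in XYM. Every XY mouse thus matched its label. Genes of other organs were low: 12 of 14 exocrine pancreas genes were below the level of 0.5 RPKM, Amy2a5 was at 0, and the 14 genes summed to 7.67 to 28.4 RPKM. Of 8 adipocyte genes, 6 were below that level, Plin1, Cidec and Lep were at 0, and the sum was 5.75 to 52.1 RPKM. Of 15 stromal and endothelial genes, 11 were below it, Ccl19 and Ccl21a were at 0, and the sum was 52.7 to 86.4 RPKM, most of it from Pecam1, an adhesion gene of vessel walls.

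A single mouse in each group stood apart. Summed over 18 neutrophil granule genes, the level was 13965, 17559, 8551 and 61468 RPKM in XYF and 3531, 10336, 4422, 4407 and 64059 RPKM in XYM. XYF F9 and XYM 9 were the highest of their groups by far. In 14 monocyte genes they summed to 4190 and 3960 RPKM, against 979 to 2073 RPKM in the other XY mice, and in 10 mast cell and basophil genes to 244 and 171 RPKM, against 27.2 to 67.4 RPKM. Their mean correlation with the mice of their own group was 0.948 and 0.940, that of the other XY mice 0.958 to 0.973. The counts over all genes and those of many lists are therefore also given without these 2 mice. Each group held such a mouse.

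A gene was called when limma gave an adjusted p under 0.1 and the levels differed by more than a fold of 1.5. Differences are on the log2 scale, always XYM minus XYF. By this measure 2087 genes (16.3% of those tested) differed, 1004 of them higher in XYM (7.83%) and 1083 lower (8.45%). The levels of the 2 groups did not overlap for 1824 genes (14.2%), and 772 genes (6.02%) were both called and without overlap, 535 higher and 237 lower. Large differences were mostly toward lower levels: 363 called genes were lower by more than 1 on the log2 scale and 147 were higher by more than 1. The median difference of all genes tested was 0.02. Without XYF F9 and XYM 9 the counts were 1336 higher (10.4%) and 1561 lower (12.2%), which held 96.6% of the higher and 95.8% of the lower calls. A single library weighed more: without XYF F6, the smallest library, 639 genes were called higher and 673 lower. Median ratio rescaling of all mice shifted the balance, to 811 higher and 1285 lower.

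**Figure D1:**
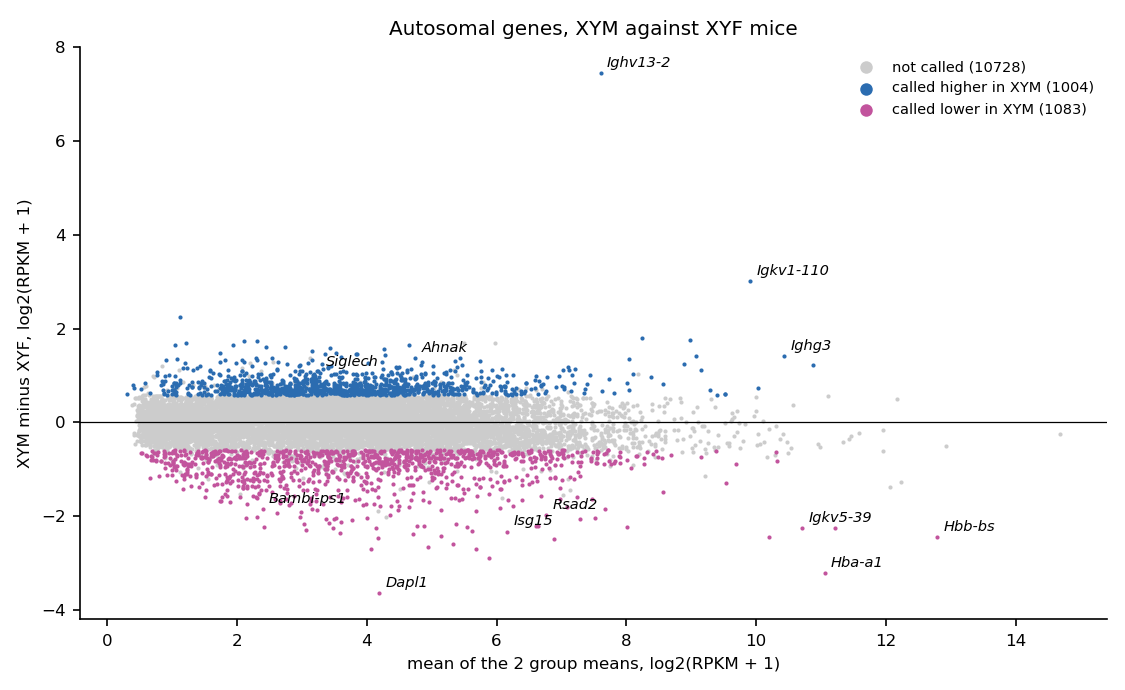
Log2 difference XYM minus XYF of each autosomal gene tested, plotted against its mean log2 level, with called genes in color. Of the 1083 genes called lower 363 lie under -1, and of the 1004 called higher 147 lie over 1.

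Gene length moved with the difference. Among 11396 protein-coding genes, the quintile with the shortest transcripts, 292 to 1541 bases, held 44 genes called higher (1.93%) and 470 called lower (20.6%), with a median difference of -0.33. In the quintile with the longest, 4553 to 23495 bases, 503 were called higher (22.1%) and 60 lower (2.63%), with a median of 0.34. The median length was 4833 bases for genes called higher, 1599 for genes called lower and 2745 for all. Between XXM and XXF the medians of the quintiles lay between -0.05 and 0.01. With each gene centered on its mean over the 9 XY mice, the median log2 level of the shortest quintile minus that of the longest was 0.55, 0.57, 0.22 and 0.10 in XYF (mean 0.36, SD 0.24) and -0.53, -0.39, 0.16, -0.57 and -0.11 in XYM (mean -0.29, SD 0.31). The groups overlapped only through XYM 15, which leaned to short genes like an XYF mouse (exact two-sided permutation p 0.0238). On the same measure XXF mice ran from -0.09 to 0.57 and XXM mice from -0.11 to 0.58, so XX mice of the same group also differed in it. After a trend on gene length was taken out of each mouse's values, a choice made after seeing the data, 556 genes were called higher (4.34%) and 916 lower (7.15%). The share of calls that were higher was then 37.8%, against 48.1% in the deposited values. Those calls held 405 of the 1004 genes called higher (40.3%) and 690 of the 1083 called lower (63.7%), and 0 genes were called in opposite directions. The cause of the trend was not tested. Genes and lists whose call ended with the trend removed are named as such.

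**Figure D2:**
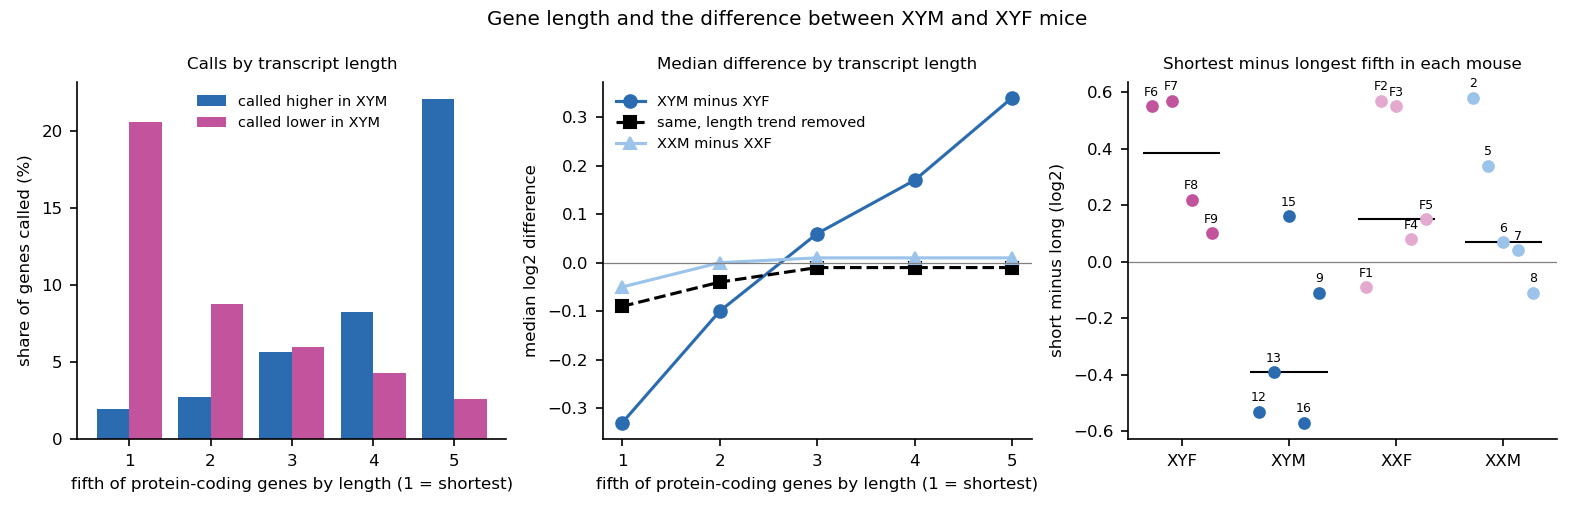
Left, share of protein-coding genes called higher and lower by quintile of transcript length. Middle, median log2 difference by quintile for XYM minus XYF, as deposited and with the length trend removed, and for XXM minus XXF. Right, shortest minus longest quintile in each mouse on the log2 scale, with the median of each group as a line: the 4 XYF mice lie between 0.10 and 0.57, and XYM 15 is the only XYM mouse above 0.

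The calls were spread over all 19 autosomes, from 13.1% of the genes tested on chromosome 8 to 21.7% on chromosome 13. On chromosome 3, which carries the transgene in XYM mice, 51 of 604 genes were called higher and 52 lower, 17.1% in all.

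The same gonad comparison in XX mice, which shares no mouse with that in XY mice, gave 535 calls among the same genes (4.17%), 153 higher in XXM (1.19%) and 382 lower (2.98%). Of the 2087 genes called between XYM and XYF, 1683 had a difference of the same sign in XX mice (80.6%), against 64.5% of all genes tested. These were 693 of the 1004 called higher, not far from the share of all genes, and 990 of the 1083 called lower. Both comparisons called 207 genes, 9.92% of the XY calls and 38.7% of the XX calls, 58 higher and 149 lower in mice with testes and 0 in opposite directions. The median XX difference was 0.12 for genes called higher in XYM and -0.34 for genes called lower.

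Lists of genes with a shared role were read by their counts and medians, beside the 16.3% called and the median of 0.02 of all genes. At the high end of the median lay B cell genes, clock genes and dendritic cell genes, and at the low end red cell, proliferation, T cell and macrophage genes. This sets aside 3 lists of 4 or fewer tested genes, of which the adipocyte list had a median of -0.93 from 2 genes. In XX mice 8 lists had a median of the other sign: neutrophil granule (0.68), heat shock (0.49), immediate early (0.23), cholesterol synthesis (0.18), platelet (0.10), exocrine pancreas (0.05), regulatory and helper T cell (-0.11) and NK and cytotoxic (-0.25). Without both XYF F9 and XYM 9, the NK and cytotoxic list had 3 calls higher and 2 lower, the marginal zone list 1 lower, the immediate early list 2 lower, the glucocorticoid and androgen response list 3 lower and the list of heavy chain constant genes 0 lower, and the complement median was -0.51. Also without both mice, calls higher were 15 in B cell identity, 3 in clock and 6 in dendritic cell genes, the last with 1 lower. Calls lower were 20 in erythroid, 13 in T cell identity, 9 in splenic macrophage and 7 in type I interferon genes. The interferon gamma list had 2 higher and 5 lower. In spleen samples of mixed cells, fewer cells of a type and less RNA of these genes per cell cannot be told apart.

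**Figure D3:**
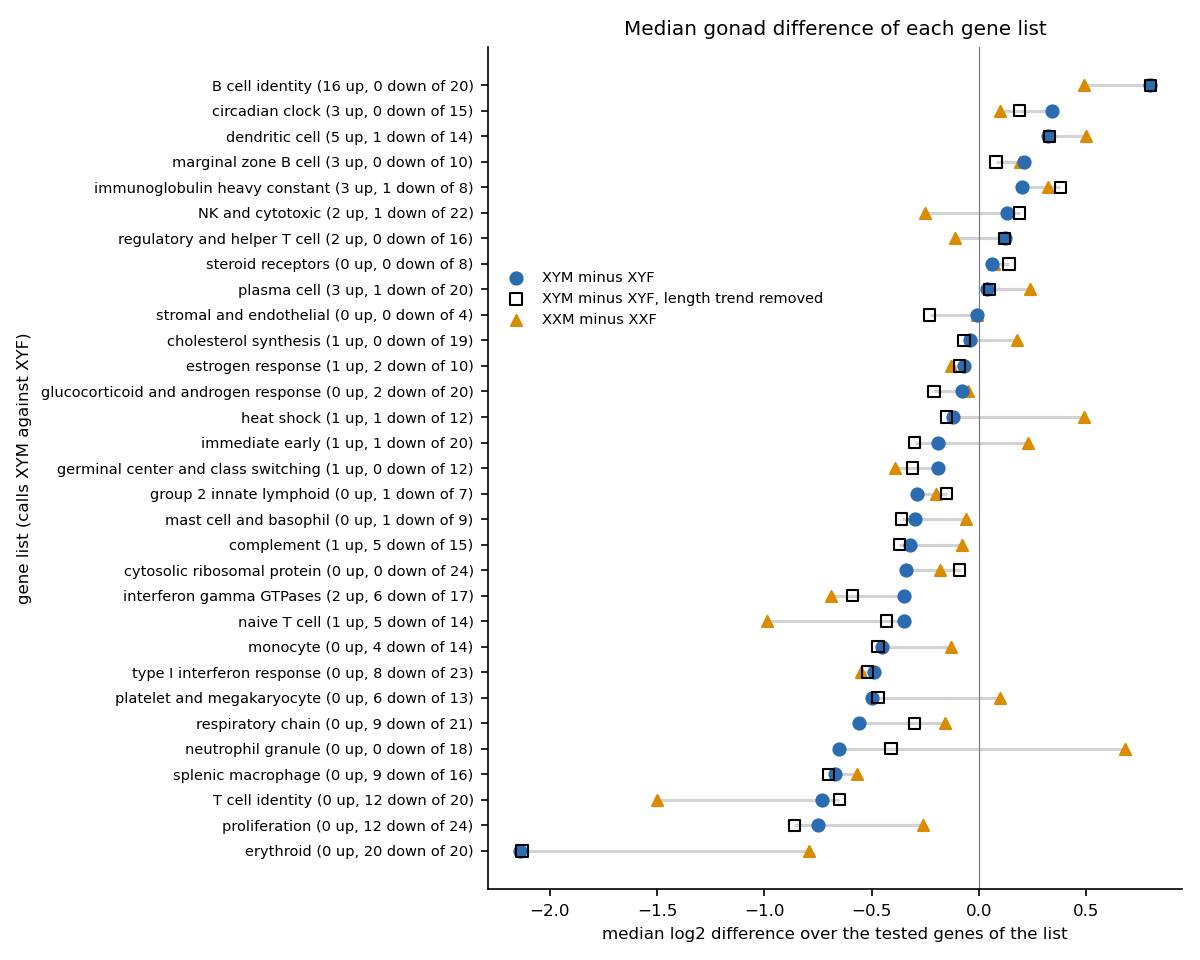
Median log2 difference of each gene list for XYM minus XYF (circles), the same with the gene length trend removed (squares) and XXM minus XXF (triangles), with the number of genes called higher and lower. The erythroid list has the lowest median, -2.14, and B cell identity the highest, 0.80.

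Antibody genes held the largest single difference. Ighv13-2, a variable segment of the antibody heavy chain, read 16.9, 9.89, 10.8 and 19.4 RPKM in XYF and 3030, 2299, 1306, 3104 and 3933 RPKM in XYM. Every XYM mouse was far above every XYF mouse. The log2 difference was 7.45 (SE 0.54, adjusted p 7.12e-07, exact permutation p 0.00794, the smallest that 9 mice can give). Ighv13-2 alone made up 16.4% to 41.4% of the summed level of the Ighv segments in XYM mice and 0.115% to 0.435% in XYF mice. The split ran with the gonad in XX mice too, where the share was 19.8% to 40.8% in XXM and 0.252% to 2.61% in XXF and the log2 difference 5.66.

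Single kappa light chain segments split along the same line. Of 101 Igkv segments 7 were called higher and 1 lower, with a median of -0.02. Of 107 Ighv segments 8 were called higher and 3 lower, with a median of 0.13. Among all genes tested 7.83% were called higher and 8.45% lower. Igkv1-110 read 512, 281, 385 and 233 RPKM in XYF and 2892, 2541, 2333, 2141 and 4209 RPKM in XYM, without overlap. It was higher by 3.02 on the log2 scale (SE 0.27, adjusted p 1.18e-05), and was called in XX mice too (adjusted p 1.27e-06). Its share of the Igkv segments was 1.69% to 3.82% in XYF and 12.7% to 31.8% in XYM. Igkv5-39 went the other way, with 3893, 4185, 3624 and 3014 RPKM in XYF and 690, 1402, 830, 328 and 1017 RPKM in XYM. Again no XYM mouse reached an XYF mouse, and the difference was -2.25 (SE 0.43, adjusted p 0.00294) in XY and -1.94 in XX mice. Igkv5-39 took 19.1% to 30.8% of the Igkv level in XYF and 2.36% to 7.69% in XYM. Igkj3, a joining segment of the kappa chain, was higher at 375 to 951 RPKM in 4 XYM mice and 349 RPKM in XYM 9, against 91.1 to 299 RPKM in XYF (1.79, adjusted p 0.00404). Segments of these families resemble each other, so reads may be shared between them and the level of a single segment is uncertain. Over all 379 antibody and T cell receptor segments tested, 28 were called higher and 29 lower, with a median of -0.07.

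Constant regions, which set the class of an antibody, differed by class. Ighg3, the IgG3 class that sugars of bacterial walls tend to elicit in mice, read 898, 449, 1674 and 750 RPKM in XYF and 2177, 2085, 1807, 1974 and 3598 RPKM in XYM. All XYM mice were higher than all XYF mice, though XYF F8 came within reach of XYM 15 (1.42, SE 0.36, adjusted p 0.0105). The XX difference was larger, 3.48, and the difference between the comparisons was not past the threshold (adjusted p 0.129). Ighg2b, the IgG2b class, was higher as well, at 2062 to 3729 RPKM in XYM against 868 to 1650 RPKM in XYF (1.22, adjusted p 0.017). Ighd, the IgD class that resting follicular B cells carry beside IgM, was 186, 385, 563 and 289 RPKM in XYF and 1264, 849, 729, 1340 and 516 RPKM in XYM. Only XYM 9 fell within the range of XYF (1.42, adjusted p 0.0116). Ighg2c, the IgG2c class, was at 993, 795, 1584 and 1254 RPKM in XYF and 448, 963, 477, 1190 and 334 RPKM in XYM, with XYM 13 and 16 inside the range of XYF. Its difference of -0.88 had an adjusted p of 0.0991 and was between -0.67 and -0.94, not called, without XYF F6, F8 or F9 or without XYM 12, 15 or 9. It was -0.61 without XYF F9 and XYM 9 together and -0.63 with the length trend removed, not called in either. Ighm, the IgM class and the most abundant of them, was 8529 to 10598 RPKM in XYF and 5439 to 9405 RPKM in XYM (-0.50, adjusted p 0.154). Without XYM 13 its difference was -0.63 with an adjusted p of 0.0991, a call, and after quantile normalization it was 0.14. In the list of 8 heavy chain constant regions 3 were called higher and 1 lower, with a median of 0.20.

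**Figure D4:**
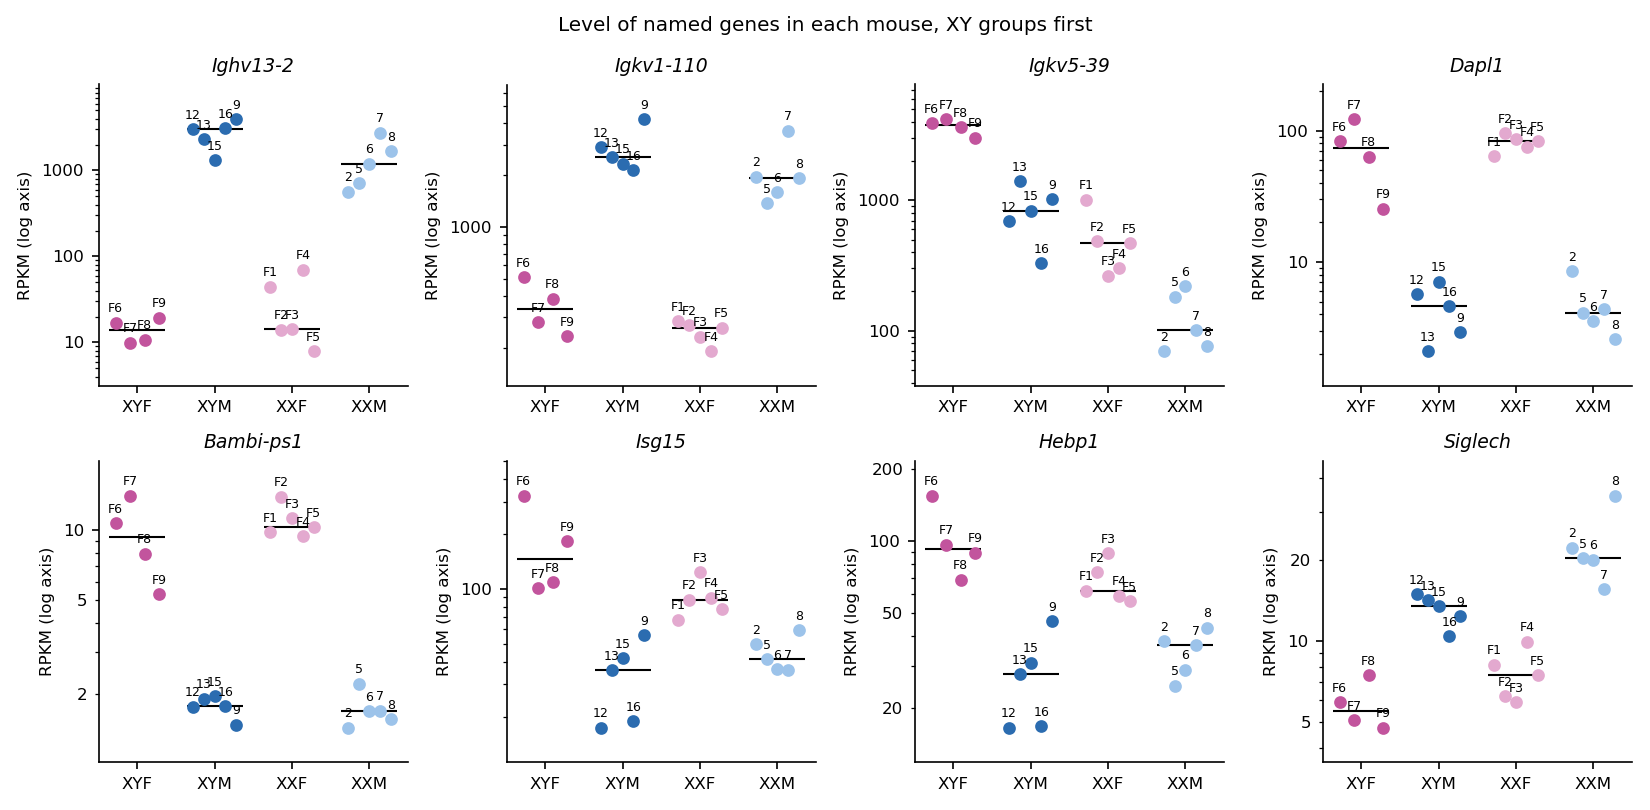
RPKM of single genes in each of the 4 XYF and 5 XYM mice, and in the XX mice beside them, on log axes with the median of each group as a line. Ighv13-2 lies between 9.89 and 19.4 in XYF and between 1306 and 3933 in XYM.

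Genes of B cell identity were higher as a list. Of 20 genes, 16 were called higher and 0 lower, with a median of 0.80 in XY and 0.49 in XX mice. Ighm held much of the list's level, and the other 19 genes summed to 2761, 4385, 4901 and 2576 RPKM in XYF and 7227, 5988, 6907, 7083 and 4328 RPKM in XYM. Only XYM 9 lay within the range of XYF. Cd22, a receptor that dampens signals of the B cell receptor, was at 57.5, 93.8, 146 and 82.9 RPKM in XYF and 269, 229, 164, 293 and 123 RPKM in XYM. XYM 9 was below XYF F8 and the other XYM mice were above all XYF mice (1.18, SE 0.30, adjusted p 0.00973). Fcer2a, the low-affinity IgE receptor of follicular B cells, was higher by 1.13 (adjusted p 0.00666), at 149 to 303 RPKM in XYM against 69.9 to 144 RPKM in XYF. Spib, a transcription factor of B cell receptor signaling, was at 73.4, 116, 141 and 83.2 RPKM in XYF and 212, 203, 224, 226 and 152 RPKM in XYM. Its groups did not overlap, with mean log2 levels of 6.66 (SD 0.43) and 7.66 (SD 0.23, adjusted p 0.00259). Pax5, the factor that fixes B cell fate, was chosen after its values were seen, since it did not move with the rest of the list. It read 112 to 262 RPKM in XYF and 200 to 323 RPKM in XYM (0.33, adjusted p 0.296).

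Genes of the marginal zone, whose B cells answer quickly to blood-borne bacteria, gave 3 calls higher and 0 lower among 10, with a median of 0.21. Cr2, the receptor that binds antigen coated with complement, was at 64.2, 76.9, 92.1 and 51.4 RPKM in XYF and 147, 129, 141, 137 and 106 RPKM in XYM. No XYM mouse was as low as the highest XYF mouse (0.91, SE 0.15, adjusted p 0.00142). Notch2, the receptor that directs B cells to the marginal zone, was higher by 0.77 (adjusted p 0.00446), and S1pr3, a receptor for the lipid that holds them there, by 0.76 (adjusted p 0.00528). With the length trend removed these differences were 0.57, 0.28 and 0.51, and 0 of the 10 genes were called. Without XYF F7, XYF F8, XYM 15 or XYM 9, 1 gene of the list was called lower.

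Of 12 genes of germinal centers and class switching, 1 was called higher, with a median of -0.19, or -0.31 with the length trend removed. That gene was Bcl6, the repressor that runs the germinal center program, at 6.86, 11.5, 13.7 and 15.8 RPKM in XYF and 25.9, 24, 19.5, 33.9 and 17 RPKM in XYM. The groups did not overlap (0.97, SE 0.30, adjusted p 0.0256), but without XYF F6 the difference was 0.74 with an adjusted p of 0.109. No gene of the list was called lower in the main limma fit. The count was 3 after median ratio rescaling, 2 after quantile normalization, and 1 without XYF F6, XYF F9, XYM 15 or XYM 9, without both F9 and 9, with a pseudocount of 0.1, with array weights or in limma-voom. The count called higher was 2 without XYF F8 or without both F9 and 9 and 0 without XYF F6.

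Among 20 plasma cell genes, 3 were called higher and 1 lower, and the median was 0.04, or -0.02 after median ratio rescaling. Irf4, a factor needed to become a plasma cell, was at 14.5, 19.6, 26.8 and 16.8 RPKM in XYF and 50.6, 41.3, 34.5, 45.7 and 29.6 RPKM in XYM, all higher (1.03, SE 0.19, adjusted p 0.00268). Tnfrsf13b, the receptor TACI for B cell survival factors, was also higher in every XYM mouse (1.09, SE 0.27, adjusted p 0.00808). Slamf7, a surface receptor of plasma cells that other lymphocytes carry too, was higher by 0.71, but by 0.58 and not called without XYF F6 and by 0.51 and not called with the length trend removed. Tnfrsf17, the receptor BCMA of mature plasma cells, was the gene called lower, at 6.47 to 7.98 RPKM in XYF and 2.25 to 5.61 RPKM in XYM (-0.82, adjusted p 0.0135; -0.52 and not called with the length trend removed). Jchain, which links IgM and IgA into larger units and was the most abundant of the list, was at 1056 to 1494 RPKM in XYF and 691 to 1213 RPKM in XYM (-0.41, adjusted p 0.272). The calls of this list thus had both signs.

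T cell genes were lower. Of 20 T cell identity genes, 12 were called lower and 0 higher, with a median of -0.73 in XY and -1.50 in XX mice, where 19 were called lower. The list summed to 1773, 2289, 1764 and 924 RPKM in XYF and 1064, 954, 1278, 1165 and 641 RPKM in XYM. XYF F9 was within the range of XYM and the other XYF mice were above every XYM mouse. Cd3g, a chain of the T cell receptor complex, read 238, 329, 227 and 105 RPKM in XYF and 97.8, 93, 137, 94.8 and 58.1 RPKM in XYM. Here too only XYF F9 came below an XYM mouse (-1.16, SE 0.28, adjusted p 0.00799). Cd8b1, the beta chain of the CD8 coreceptor of killer T cells, was lower by the same amount (-1.16, adjusted p 0.00651), and Lat, the adaptor that passes on the receptor's signal, by more (-1.31, adjusted p 0.00471). Cd3d, another chain of the complex, differed by -1.12 (adjusted p 0.0317), but was not called without XYF F6 (-0.98) or XYF F7 (-0.88). Cd4, the coreceptor of helper T cells, was chosen after its values were seen. It was at 21.9 to 32 RPKM in XYF and 13.6 to 37.1 RPKM in XYM, with no called difference (0.04, adjusted p 0.911), and differed by -1.11 in XX mice. The sign for Cd4 turned under several settings, such as -0.02 after median ratio rescaling.

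Segments of the T cell receptor beta chain went with these genes, with 11 of 21 Trbv and 3 of 13 Trbj segments called lower. In the alpha chain, of 45 Traj segments 7 were called lower and 2 higher, and of 56 Trav segments 4 were called lower, a share below the 8.45% of all genes. Of gamma and delta segments 0 were called lower, 1 of 4 Trdv segments was called higher, and the medians of Trgv and Trgj were 0.30 and 0.49 with 3 segments each. Traj16 read 151, 148, 91.2 and 50.8 RPKM in XYF and 9.29, 19.7, 53.2, 13.6 and 26.7 RPKM in XYM (-2.24, SE 0.57, adjusted p 0.0102). The groups touched through XYF F9 and XYM 15. Traj27 and Traj49 differed by -1.98 and -1.64, and each lost its call without some libraries. For Traj27 these were XYF F6 (-1.86), XYF F7 (-1.74) and XYM 12 (-1.55), for Traj49 XYF F6 (-1.32), XYF F7 (-1.30), XYM 12 (-1.54) and XYM 16 (-1.25). These 3 joining segments are short and rest on 2 to 155 reads a mouse, so their levels are uncertain.

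Naive T cell genes held the gene with the lowest adjusted p among protein-coding calls. Dapl1, a gene of resting T cells, was at 83, 122, 63.3 and 25.5 RPKM in XYF and 5.71, 2.1, 7.1, 4.62 and 2.93 RPKM in XYM. The lowest XYF mouse, F9, was still above the highest XYM mouse (-3.64, SE 0.36, adjusted p 2.68e-05, exact permutation p 0.00794). In XX mice the difference was -3.92. Of the 14 genes in this list 5 were called lower and 1 higher, with a median of -0.35, or -0.20 without XYF F7 and -0.54 without XYF F9. The count called higher was 0 without XYF F6, XYF F9, XYM 12 or XYM 16 and after median ratio rescaling. Igfbp4, a secreted protein that binds insulin-like growth factors, read 46.4 to 81.3 RPKM in XYF and 16.4 to 35.3 RPKM in XYM (-1.40, SE 0.21, adjusted p 0.00104). Lef1, a factor of Wnt signaling in young T cells, differed by -1.08 and Actn1, a gene of the actin skeleton, by -0.98.

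Regulatory and helper T cell genes were not lower as a list, with 2 of 16 called higher, 0 lower and a median of 0.12. Without XYM 9 the number called higher was 5, without both XYF F9 and XYM 9 it was 4, and without XYF F6, XYF F9, XYM 13 or XYM 16 it was 1. Without XYF F9, 1 gene was called lower. Cxcr5, the receptor that leads follicular helper T cells and also B cells into follicles, read 44.5, 88.1, 91.9 and 60.9 RPKM in XYF and 170, 132, 146, 179 and 83.2 RPKM in XYM. XYM 9 alone lay within the range of XYF (0.99, SE 0.26, adjusted p 0.0122).

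Cytotoxic genes were split. Of 22 genes of NK and cytotoxic cells 2 were called higher and 1 lower, with a median of 0.13, or -0.01 without XYF F9. Gzmk, a protease of killer cell granules, was the gene called lower, at 4.15, 3.31, 7.94 and 5.5 RPKM in XYF and 1.03, 1.71, 0.65, 0.976 and 0.265 RPKM in XYM. No XYM mouse reached the lowest XYF mouse (-1.68, SE 0.28, adjusted p 0.00179; -0.92 in XX mice). Klra8 and Klrk1, receptors by which NK cells see their targets, were higher by 0.85 and 0.68. Klra8 lost its call without XYF F9 (0.59), and Klrk1 without XYF F6 (0.65), XYF F9 (0.51) or XYM 15 (0.58) and with the length trend removed (0.54). Without XYM 9, 4 genes of the list were called higher, and the number called lower was 3 without XYF F9 and 2 without XYM 15. Among 7 genes of group 2 innate lymphoid cells, Il1rl1, the receptor for IL-33, was called lower (-0.68, adjusted p 0.0311), but not without XYF F6 (-0.50) or XYF F9 (-0.54). The median of these genes was -0.29, and without XYF F8 or XYM 15, 1 of them was called higher.

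Dendritic cell genes gave 5 calls higher and 1 lower among 14, with a median of 0.32 in XY and 0.50 in XX mice. Without XYF F6, 3 were called higher. Siglech, a surface receptor of plasmacytoid dendritic cells, was at 5.89, 5.05, 7.43 and 4.75 RPKM in XYF and 14.9, 14.1, 13.4, 10.4 and 12.3 RPKM in XYM. All XYM mice were above all XYF mice (1.06, SE 0.19, adjusted p 0.0022; 1.43 in XX mice). Flt3, the growth factor receptor that dendritic cells depend on, was at 4.22, 4.45, 7.44 and 6.52 RPKM in XYF and 11, 15.3, 10.1, 12.4 and 11.1 RPKM in XYM. It too was without overlap (0.98, SE 0.14, adjusted p 0.000887; 1.07 in XX mice). Cd209a, a sugar-binding receptor of conventional dendritic cells, was higher by 0.82 (adjusted p 0.00225). Irf8, a factor of dendritic cells that B cells share, was higher by 0.73, with 0.53 and no call without XYF F6. Itgae, an integrin of a dendritic cell subset and of some T cells, was the member called lower (-0.59, adjusted p 0.0173). Without XYF F7, XYF F8, XYM 15 or XYM 9 it was between -0.49 and -0.57 and not called, and without XYF F9, 2 genes of the list were called lower.

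Monocyte genes gave 4 calls lower and 0 higher among 14, with a median of -0.45. The median was -0.15 without XYF F9 and -0.29 without both F9 and 9, and array weights gave 2 calls higher and 1 lower. Cd14, the receptor that passes on bacterial lipid, read 13.2, 32.4, 8.7 and 21.7 RPKM in XYF and 6.14, 9.27, 7.29, 4.39 and 7.85 RPKM in XYM. Only XYM 13 was above the lowest XYF mouse (-1.20, SE 0.28, adjusted p 0.00638). Clec4a3, a lectin receptor of myeloid cells, differed by -0.94 (adjusted p 0.0142), or -0.54 and not called with the length trend removed and both F9 and 9 left out. Without XYF F9, 2 genes of the list were called higher, and without XYM 15, 1.

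Splenic macrophage genes fell, 9 of 16 called lower and 0 higher, with a median of -0.67. The list summed to 1337, 2519, 956 and 896 RPKM in XYF and 657, 772, 870, 691 and 463 RPKM in XYM. Every XYF mouse was above every XYM mouse, and XYF F7 was the highest. Without XYF F7, 5 genes were called lower and the median was -0.31. Cd5l, a protein that macrophages release and that keeps them alive, was at 94.5, 150, 81.2 and 54.1 RPKM in XYF and 24.7, 37.4, 41.4, 23.5 and 23.8 RPKM in XYM. There was no overlap (-1.57, SE 0.30, adjusted p 0.00294). Hmox1, the enzyme that opens heme so that iron can be recycled, was the most abundant, at 328, 520, 242 and 199 RPKM in XYF and 166, 174, 195, 179 and 118 RPKM in XYM. It was lower without overlap (-0.87, adjusted p 0.0221), by a narrow gap between XYF F9 and XYM 15.

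The complement list shares its C1q genes with the macrophage list, since macrophages make C1q. Of 15 complement genes 5 were called lower and 1 higher, with a median of -0.32. C1qa read 210, 420, 137 and 145 RPKM in XYF and 58.2, 96.5, 131, 82.4 and 45.8 RPKM in XYM, with no overlap (-1.39, SE 0.32, adjusted p 0.00603). C1qb and C1qc, the other chains of the molecule that starts the classical pathway, differed by -1.38 and -1.17. C6, a part of the pore that complement builds, was at 8.6 to 23.4 RPKM in XYF and 3.75 to 6.06 RPKM in XYM (-1.05, adjusted p 0.00711). C4b, a carrier of the classical pathway that was named after its values were seen, was at 1.56, 1.5, 2.12 and 1.28 RPKM in XYF and 0.187, 0.771, 0.334, 0.246 and 0.175 RPKM in XYM. All XYM mice were lower (-0.97, SE 0.12, adjusted p 0.000205). The gene called higher was Cr2, which was no longer called with the length trend removed.

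Neutrophil genes were spread widely within each group. Of 18 granule genes 0 were called by limma in the fit of all mice and 1 had an unadjusted p under 0.05, with a median of -0.65 in XY and of 0.68 in XX mice, or -0.41 in XY mice with the length trend removed, and all 18 had a negative difference. S100a9, a calcium-binding protein that fills neutrophils, read 5527, 7161, 3428 and 23224 RPKM in XYF and 1296, 3803, 1697, 1415 and 24728 RPKM in XYM. XYF F9 and XYM 9 were alike and far above the rest, and of the other mice XYM 13 alone reached into the XYF range (-1.27, adjusted p 0.155). S100a8, its partner in the same complex, differed by -1.38 (adjusted p 0.107). Without both F9 and 9, 7 genes of the list were called lower, S100a9 by -1.47 and S100a8 by -1.58. Without XYM 9 alone 16 were called, S100a9 by -2.01, S100a8 by -2.07 and Ngp, a granule protein, by -1.30, and without XYF F8 alone 4, S100a9 by -1.64 and S100a8 by -1.74. Without XYF F9 alone the median was 0.03 and Ngp was at 0.24, against -0.55 for Ngp with all mice. The median was -1.33 without XYM 9, -1.03 without XYF F8, -0.34 without XYM 12 and -0.36 without XYM 15. Of 9 mast cell and basophil genes, 1 was called lower, with a median of -0.30. It was Fcer1a, a chain of the high-affinity IgE receptor (-0.61, adjusted p 0.0997), which lay between -0.33 and -0.72 and was not called without XYF F6, F7 or F9 or XYM 12, 13, 15 or 16. It was -0.36 with the length trend removed and -0.55 without both F9 and 9, not called in either. Without both the list had 3 calls lower, without XYM 9 alone it had 4 and without XYF F8 it had 2, and without XYF F9 it had 1 higher.

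**Figure D5:**
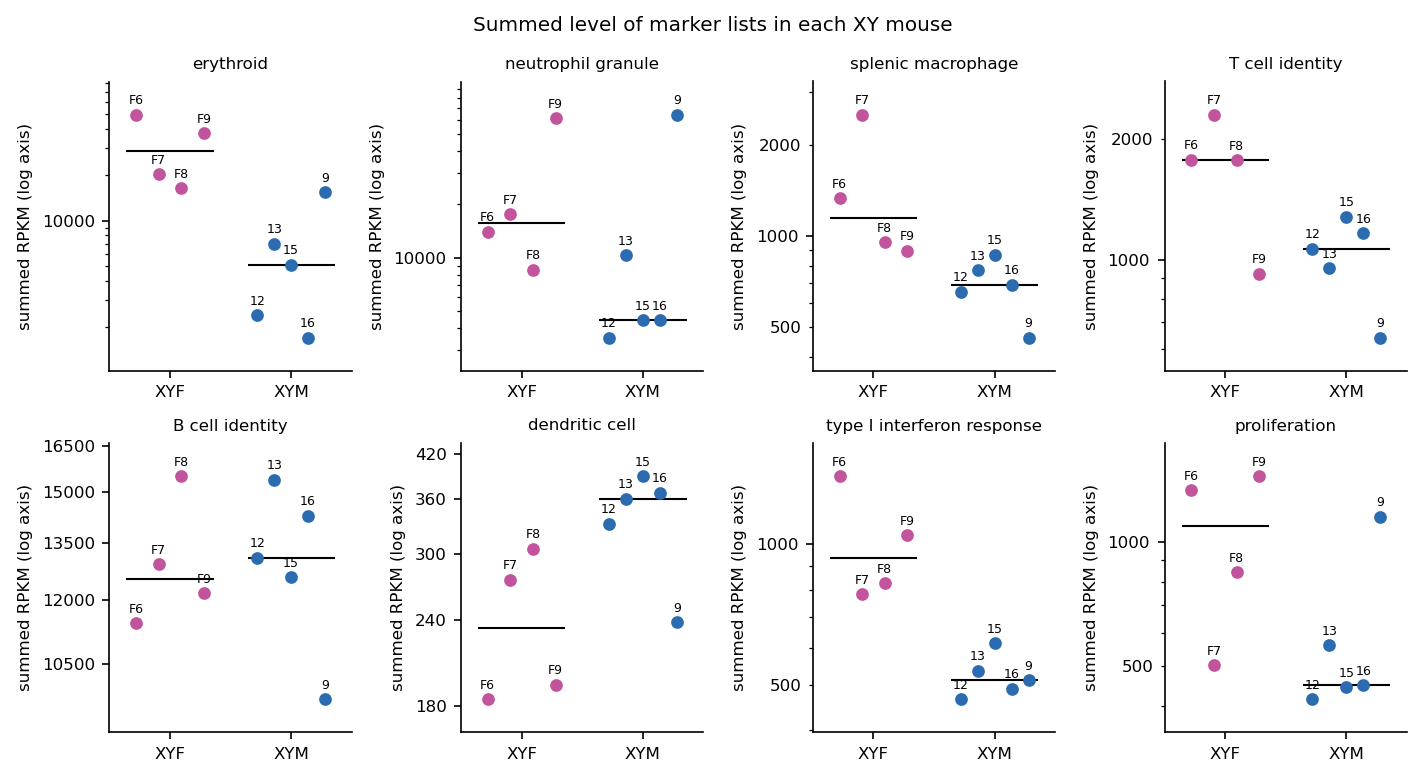
Summed RPKM of marker lists in each XY mouse on log axes, with the median of each group as a line. XYF F9 and XYM 9 lead in the neutrophil list at 61468 and 64059, and the erythroid sum is 16360 or more in XYF and 15433 or less in XYM.

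Red cell genes had the lowest median of the lists. All 20 erythroid genes tested were called lower, with a median of -2.14 in XY mice and of -0.79 in XX mice, where limma called 0 of the 20 and 1 had an unadjusted p under 0.05. The sum was 49613, 20237, 16360 and 37502 RPKM in XYF and 2390, 7037, 5135, 1698 and 15433 RPKM in XYM. XYM 9 came close to XYF F8 but stayed below it, and XYF F6 was the highest. Without XYF F6, 13 of the 20 were called lower. Hbb-bs, a beta globin gene and the most abundant, read 27384, 14159, 9922 and 19468 RPKM in XYF and 1614, 4812, 3576, 916 and 10051 RPKM in XYM. XYM 9 was just above XYF F8 (-2.45, SE 0.55, adjusted p 0.00585). Hba-a1, an alpha globin gene, was at 14520, 3228, 3443 and 11170 RPKM in XYF and 330, 984, 746, 322 and 2156 RPKM in XYM. These did not overlap (-3.22, SE 0.53, adjusted p 0.0017). Its near copy Hba-a2 differed by -2.45 and Hbb-b1, the near copy of Hbb-bs, by -2.25. Reads of such copies may be shared, so the level of each alone is uncertain. Globin reads made up 3.39%, 1.44%, 1.13% and 2.47% of the library in XYF and 0.17%, 0.507%, 0.377%, 0.112% and 1.08% in XYM. Red cells had been lysed during preparation, and how much each sample kept was not tested.

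Rhd, the Rh blood group protein and a member of the erythroid list, differed by -2.69 (SE 0.69, adjusted p 0.0111). Outside that list, Hebp1 and Blvrb were among the largest lower calls without overlap. Hebp1, a heme-binding protein, read 155, 96.8, 68.9 and 89.3 RPKM in XYF and 16.5, 27.7, 30.9, 16.7 and 46.2 RPKM in XYM. All XYF mice were higher (-1.90, SE 0.27, adjusted p 0.000887), and XX mice differed by -0.97. Blvrb, which reduces biliverdin and is abundant in red cells, was at 182 to 399 RPKM in XYF and 56.8 to 146 RPKM in XYM (-1.59, SE 0.25, adjusted p 0.00135).

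MicroRNA genes of the red cell line were lower too, and were named after their values were seen. Mir451a read 85.1, 8.89, 45.6 and 82.4 RPKM in XYF and 1.75, 9.04, 5.01, 2.3 and 21.9 RPKM in XYM. XYF F7 was as low as XYM 13 and below XYM 9 (-2.69, SE 0.59, adjusted p 0.00523). Mir144, its neighbour on chromosome 11, differed by -2.24 (adjusted p 0.0318) and by -1.79 with an adjusted p of 0.123 without XYF F6. PolyA libraries capture precursors of these RNAs and not the mature forms. The mature sequences, from RefSeq on GRCm38.p6, are shown because they are what these precursors would yield. Capitals mark the seed, bases 2 to 8, and the pair shares no seed.
mmu-miR-451a: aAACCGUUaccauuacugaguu
mmu-miR-144-3p: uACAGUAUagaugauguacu

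Promoters were read for letters that factors of the red cell line bind, AGATAA for GATA factors and CCACACCC for KLF1, on both strands. Sequences from 250 bases before to 50 bases after the start came from RefSeq for 9631 of the tested genes. AGATAA was in 6 of the 14 erythroid genes with a promoter in that collection and in 781 of all 9631 (8.11%). CCACACCC was in 1 of the 14 and in 453 of all (4.7%). Hbb-bs held both, 210 and 93 bases before the start, and Rhd held AGATAA 43 bases before the start, while Hba-a1 and Hba-a2 held neither. The promoters of Hba-a1 and Hba-a2 did hold TGATAA, which differs from AGATAA in its first letter and was not searched for. Such a match describes letters only. The promoters of Hbb-bs, chr7:103827879-103828178 on the minus strand, and of Rhd, chr4:134864286-134864585 on the plus strand of GRCm38.p6, show where the matches, in capitals, lie.
Hbb-bs: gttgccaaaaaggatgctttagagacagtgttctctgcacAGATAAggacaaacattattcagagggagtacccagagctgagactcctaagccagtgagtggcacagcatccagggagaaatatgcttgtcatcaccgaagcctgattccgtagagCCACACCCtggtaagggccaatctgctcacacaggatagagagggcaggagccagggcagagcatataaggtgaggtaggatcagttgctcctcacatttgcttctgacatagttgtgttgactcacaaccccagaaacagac
Rhd: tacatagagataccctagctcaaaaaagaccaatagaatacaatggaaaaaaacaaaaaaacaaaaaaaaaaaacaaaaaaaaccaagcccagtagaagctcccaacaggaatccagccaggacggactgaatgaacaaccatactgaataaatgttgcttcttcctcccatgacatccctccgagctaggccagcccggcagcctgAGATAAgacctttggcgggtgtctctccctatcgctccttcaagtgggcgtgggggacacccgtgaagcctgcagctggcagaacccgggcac

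Platelet and megakaryocyte genes gave 6 calls lower of 13 and 0 higher, with a median of -0.50. Without XYF F9 the count was 3, and without XYM 16 or without both F9 and 9 it was 2. Gp9, a part of the receptor by which platelets grip vessel walls, was at 13.4, 8.89, 7.07 and 13.3 RPKM in XYF and 3.96, 5.68, 5.4, 2.93 and 5.5 RPKM in XYM. There was no overlap (-1.02, SE 0.19, adjusted p 0.00289), but with the length trend removed and both F9 and 9 left out the difference was -0.57 and not called. Pf4, a chemokine of platelet granules, differed by -0.82 (adjusted p 0.0647), but was between -0.56 and -0.81 and not called without XYF F6, F7 or F9 or XYM 12 or 16. With both F9 and 9 left out it was -0.81, and with the length trend removed -0.49, not called in either.

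Proliferation genes were lower on the whole, 12 of 24 called and 0 higher, with a median of -0.75 and all 24 differences negative. The sum was 1333, 502, 844 and 1440 RPKM in XYF and 415, 560, 444, 449 and 1150 RPKM in XYM. XYM 9 was high among XYM mice and XYF F7 low among XYF mice. The count rested on single libraries: it was 2 without XYF F6, 5 without XYF F9, 4 without XYM 12, 5 without XYM 16, 21 without XYF F7 and 21 without XYM 9. It was 3 when the 9 XY mice were fitted alone. Leaving out both F9 and 9 gave 16 calls lower, removing the length trend gave 15, and both changes together gave 19. Birc5, which guides chromosomes through division, was at 57.6, 11.6, 23.9 and 52.3 RPKM in XYF and 4.33, 10.2, 7.42, 5.95 and 34.2 RPKM in XYM (-1.59, SE 0.48, adjusted p 0.022). Apart from XYM 9, every XYM mouse was below every XYF mouse. Cdk1, the kinase that starts mitosis, differed by -1.29 (adjusted p 0.0254), with -1.06 and no call without XYF F6. Rrm2, which makes DNA building blocks, differed by -1.33 but was not called without XYF F6 (-1.07), XYF F9 (-1.06) or XYM 12 (-1.15). Ccnb2, a cyclin of mitosis, differed by -1.16 but was not called without XYF F6 (-0.95), XYF F9 (-0.87), XYM 12 (-0.97) or XYM 16 (-1.03). Mki67, the common marker of dividing cells, was named after its values were seen: it was 19.6 to 135 RPKM in XYF and 10.8 to 80.6 RPKM in XYM and not called (-1.03, adjusted p 0.147). It was called without XYF F7 (-1.54), without XYM 9 (-1.40) and with the length trend removed (-1.51). Red cell precursors divide, and how much of these values came from them was not tested.

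Genes of the type I interferon response gave 8 calls lower and 0 higher among 23, with a median of -0.49 in XY and -0.55 in XX mice. Without XYM 15, 13 were called. Isg15, a ubiquitin-like protein and a strong target of interferon, read 324, 101, 109 and 183 RPKM in XYF and 17.4, 36, 41.7, 18.9 and 55.9 RPKM in XYM. All XYF mice were above all XYM mice (-2.33, SE 0.34, adjusted p 0.000957, exact permutation p 0.00794; -0.98 in XX mice). Rsad2, the antiviral enzyme viperin, was at 439, 81.5, 172 and 339 RPKM in XYF and 26.2, 71.6, 52.8, 29.3 and 150 RPKM in XYM. XYM 9 was above XYF F7 (-1.98, SE 0.48, adjusted p 0.00811). Ifit1, which binds viral RNA, was lower in every XYM mouse (-1.24, SE 0.19, adjusted p 0.00111), and so was Oas1a, a sensor of double-stranded RNA (-0.90, SE 0.16, adjusted p 0.00206). The list summed to 1400, 783, 825 and 1048 RPKM in XYF and 466, 536, 614, 490 and 512 RPKM in XYM, without overlap.

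The core of the interferon-stimulated response element, GAAA and after any 2 bases GAAA again, was searched for on both strands of the same promoters. It was in 9 of 16 promoters of the type I interferon list, in 5 of the 7 of its called genes that had a promoter, in 10 of 11 of the interferon gamma list, and in 390 of all 9631 (4.05%). Isg15 held 3 overlapping matches, the first starting 78 bases before the start, and Rsad2 held 1 match on the reverse strand, 120 bases before the start. The promoters of Isg15, chr4:156200769-156201068, and Rsad2, chr12:26456403-26456702, both on the minus strand of GRCm38.p6, are shown with the matches in capitals, since these were the called genes of the list with the largest differences.
Isg15: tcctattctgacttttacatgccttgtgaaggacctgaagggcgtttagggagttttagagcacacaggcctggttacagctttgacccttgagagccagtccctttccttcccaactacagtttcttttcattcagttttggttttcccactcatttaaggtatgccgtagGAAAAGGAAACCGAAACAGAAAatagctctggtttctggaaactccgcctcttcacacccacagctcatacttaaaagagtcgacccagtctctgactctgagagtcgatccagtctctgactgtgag
Rsad2: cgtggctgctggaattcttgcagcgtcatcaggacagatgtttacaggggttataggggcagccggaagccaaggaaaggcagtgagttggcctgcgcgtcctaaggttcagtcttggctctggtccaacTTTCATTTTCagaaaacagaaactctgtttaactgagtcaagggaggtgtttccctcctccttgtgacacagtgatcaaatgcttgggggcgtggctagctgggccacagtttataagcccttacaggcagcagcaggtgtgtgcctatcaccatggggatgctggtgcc

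Genes that interferon gamma induces had both signs. Of 17 genes 6 were called lower and 2 higher, with a median of -0.35 in XY and -0.69 in XX mice. With the length trend removed 9 were called lower and the median was -0.59. Without XYM 9, 2 were called lower, and without XYF F6, 1 was called higher. Iigp1, a GTPase that attacks the vacuoles of microbes, was at 15.1, 14.8, 20.9 and 9.3 RPKM in XYF and 6.2, 7.51, 8.76, 8.49 and 2.26 RPKM in XYM. There was no overlap (-1.12, SE 0.26, adjusted p 0.00694), and in XX mice the difference was -1.46. Cxcl9, a chemokine that draws activated T cells, differed by -0.78 (adjusted p 0.0143), and Igtp, another such GTPase, by -0.73 (adjusted p 0.00556; -0.58 and not called without XYM 9). Ciita, the switch for antigen presentation genes that B cells express on their own, was higher, at 28.2 to 64.5 RPKM in XYM and 14.7 to 31.2 RPKM in XYF (1.06, adjusted p 0.0135). Gbp9, a guanylate-binding protein, was higher by 0.86, with 0.79 and no call without XYF F6.

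Among the protein-coding genes with the largest higher calls, Pgap1, which trims the lipid anchors of surface proteins, read 4.88, 6.15, 7.38 and 3.32 RPKM in XYF and 27.3, 16.6, 14.3, 23.1 and 11.2 RPKM in XYM. Every XYM mouse was higher (1.58, SE 0.26, adjusted p 0.00142; 1.09 with the length trend removed). Egr3, a factor switched on by antigen receptors, was at 2.07, 4.03, 8.18 and 4.3 RPKM in XYF and 15.1, 15.6, 9.78, 26.9 and 8.52 RPKM in XYM, without overlap (1.52, SE 0.41, adjusted p 0.0131). Rel, an NF-kappaB subunit that lymphocytes need to divide, was at 4.57, 6.57, 8.53 and 4.7 RPKM in XYF and 34.2, 20.7, 10.2, 26.1 and 10.1 RPKM in XYM. XYM 12 and 16 were the highest and XYM 15 and 9 nearest to the XYF mice (1.47, SE 0.34, adjusted p 0.00633). Clec2i, a lectin-like ligand of NK cell receptors, was higher by 1.38 (SE 0.31, adjusted p 0.00581). Ahnak, a very large scaffold protein, was higher by 1.37 as deposited and by 0.73 with the length trend removed, both called. Wdfy2, an adaptor of early endosomes, was at 0.971 to 2.19 RPKM in XYF and 2.69 to 8.64 RPKM in XYM (1.33, SE 0.38, adjusted p 0.0166).

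Immediate early genes, which cells switch on within minutes of a signal, gave 1 call higher and 1 lower among 20, with a median of -0.19. The gene higher was Egr3. Ier3, a regulator of cell survival, was the gene lower (-0.62, adjusted p 0.0612), and was between -0.51 and -0.65 and not called without XYF F6, F7 or F9 or XYM 12, 15 or 16. It was -0.38 and not called with the length trend removed. Without XYF F6 or XYF F9, 3 genes of the list were called lower, and 2 without XYF F8, XYM 13, XYM 15 or XYM 9.

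Heat shock genes gave 1 call in each direction among 12, with a median of -0.12, or 0.01 without XYF F7. In XX mice the median was 0.49 and 4 were called higher. Hsph1, a helper of HSP70, was at 27.8 to 38.1 RPKM in XYF and 54.8, 44.9, 112, 54 and 38 RPKM in XYM, XYM 15 being the highest (0.78, adjusted p 0.0736). It was not called without XYF F6 (0.82), XYF F7 (0.71), XYF F9 (0.73), XYM 12 (0.79), XYM 15 (0.53) or XYM 16 (0.79), nor with the length trend removed (0.62). Hspe1, the mitochondrial co-chaperone HSP10, differed by -0.64 (adjusted p 0.079), with -0.49 to -0.65 and no call without XYF F6, F7 or F8 or XYM 12, 13 or 16, and -0.33 with the length trend removed. Without XYF F8 or XYM 9, 2 heat shock genes were called higher.

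Clock genes gave 3 calls higher and 0 lower among 15, with a median of 0.34. With the length trend removed 2 were called and the median was 0.19. Arntl, the core factor BMAL1, was at 5.89, 7.46, 8.23 and 6.1 RPKM in XYF and 12.5, 11.8, 13, 13.6 and 9.47 RPKM in XYM. No overlap was seen (0.73, SE 0.14, adjusted p 0.0031). Bhlhe41, a repressor within the clock that B cells also use, was higher by 0.89 (adjusted p 0.0129). Clock, the partner of BMAL1, was higher by 0.60 (adjusted p 0.0115), but by 0.49, 0.50, 0.57 and 0.57 and not called without XYF F9, XYM 12, XYM 13 or XYM 16. It was 0.56 after median ratio rescaling, 0.57 after quantile normalization and 0.21 with the length trend removed, not called in any of these. The hour of death is not in the records.

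Cholesterol synthesis genes gave 1 call of 19, with a median of -0.04. It was Hsd17b7, which acts in cholesterol synthesis and can also turn estrone into estradiol, at 1.4 to 2.63 RPKM in XYF and 2.22 to 4.24 RPKM in XYM. Its difference of 0.64 (adjusted p 0.00758) was 0.57 and not called without XYM 12 or without both F9 and 9, and 0.40 and not called with the length trend removed. Without XYF F8, 2 genes of the list were called higher.

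Genes of protein synthesis and of mitochondria are short, and in the main fit calls came only from the second set. Of 24 cytosolic ribosomal protein genes, with a median length of 740 bases, limma called 0 with all mice, and 6 had an unadjusted p under 0.05. Their median was -0.34, or -0.09 with the length trend removed, and 23 differences were negative. The count called lower was 12 without XYF F9, 11 without XYM 15 and 9 without both F9 and 9. It was 10 with array weights, 6 after median ratio rescaling and 1 in limma-voom. Rps14, among the most abundant, was at 805 to 2591 RPKM in XYF and 624 to 1808 RPKM in XYM (-0.69, adjusted p 0.16; -0.36 with the length trend removed). It was called without XYF F9 (-1.02) or XYM 15 (-0.91) and without both F9 and 9 (-0.97). Of 21 respiratory chain genes, with a median length of 635 bases, 9 were called lower and 0 higher, with a median of -0.56. With the length trend removed the count was 1, without XYF F6 or XYM 16 it was 5, and without XYM 15 or without both F9 and 9 it was 14. Uqcrq, a subunit of complex III, read 179, 190, 134 and 97.2 RPKM in XYF and 60.3, 71.6, 119, 52.7 and 73.6 RPKM in XYM. Only XYM 15 was inside the range of XYF (-0.99, SE 0.28, adjusted p 0.0164; -0.66 and still called with the length trend removed). Atp5j2, a part of ATP synthase, differed by -0.85, Cox6c of complex IV by -0.82 and Ndufa2 of complex I by -0.82. With the length trend removed these were -0.52, -0.49 and -0.49, none called. Cox6c was not called without XYF F6 (-0.71), and Ndufa2 was not without XYF F6 (-0.70), XYF F7 (-0.62), XYM 12 (-0.78), XYM 13 (-0.80) or XYM 16 (-0.70).

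Of 8 steroid receptor and steroid enzyme genes tested, limma called 0 in the main fit and 3 had an unadjusted p under 0.05, with a median of 0.06, and Esr2, the other estrogen receptor, was at 0 in the 9 mice. Nr3c1, the glucocorticoid receptor, read 29, 29, 30.8 and 28 RPKM in XYF and 45.3, 40.5, 45.6, 45 and 37.4 RPKM in XYM. Its groups did not overlap (0.53, SE 0.07, adjusted p 0.000635), but the difference was under the fold of 1.5, and 0.19 (adjusted p 0.123) with the length trend removed. Esr1, the main estrogen receptor, was named after its values were seen. It was at 0.308, 0.337, 0.271 and 0.45 RPKM in XYF and 1.17, 0.777, 0.536, 0.831 and 0.595 RPKM in XYM. The XYM mice passed the filter of 0.5 RPKM and no XYF mouse did, so this gene was tested only through the group in which it is higher. Its difference was 0.40 and not called, and it was called with a pseudocount of 0.5 or 0.1 and in limma-voom. Nothing is drawn from either. Without XYF F6 the median of this list was -0.02, and without XYM 9, 1 gene was called lower.

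Genes known to answer to steroid hormones had list medians near 0 in the main fit, over differences of both signs. By limma, 7 of 20 glucocorticoid and androgen response genes and 5 of 10 estrogen response genes had an unadjusted p under 0.05. Of 20 glucocorticoid and androgen response genes 2 were called lower and 0 higher, with a median of -0.08. These were the metallothioneins Mt1 and Mt2, which bind zinc and also answer to metals and inflammation. Mt2 was at 40.7, 11.6, 17.9 and 21.3 RPKM in XYF and 3.96, 6.31, 5, 5.56 and 11.1 RPKM in XYM. The highest XYM mouse, 9, was just below the lowest XYF mouse, F7 (-1.62, SE 0.31, adjusted p 0.00304). Mt1 differed by -1.20 (adjusted p 0.00484), again without overlap. Of 10 estrogen response genes 2 were called lower and 1 higher, with a median of -0.07, or 0.02, 0.02 and 0.01 without XYF F8, XYF F9 or XYM 12. The lower ones were Igfbp4 and Ctsd, a protease of lysosomes that macrophages hold in quantity, at 251 to 498 RPKM in XYF and 173 to 222 RPKM in XYM (-0.81, SE 0.16, adjusted p 0.00325). Nrip1, a corepressor of nuclear receptors, was the gene higher (0.95, adjusted p 0.0658), at 1.22 to 2.24 RPKM in XYF and 7.25, 5.85, 1.56, 7.42 and 2.18 RPKM in XYM. XYM 15 and 9 were within the range of XYF. The call ended without XYF F6 (0.85), XYF F7 (0.88), XYM 12 (0.78), XYM 13 (0.85) or XYM 16 (0.78) and with the length trend removed (0.70).

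Few genes of tissue around the spleen reached the filter. Of 2 tested genes in the exocrine pancreas list and 2 in the adipocyte list, 1 each was called lower. Cela1, an elastase that leads the exocrine pancreas list, was at 23, 23, 10.7 and 13.1 RPKM in XYF and 5.86, 8.06, 9.08, 5.44 and 6.17 RPKM in XYM (-1.17, SE 0.20, adjusted p 0.00206). All XYF mice were higher, while Amy2a5 of the same list was at 0. Fabp4, a fatty acid carrier of fat cells and also of macrophages, was at 50.5, 20.1, 35.4 and 43.4 RPKM in XYF and 4.9, 18.7, 20, 8.26 and 12.8 RPKM in XYM. XYF F7 was nearly level with XYM 15 and the groups did not overlap (-1.53, SE 0.32, adjusted p 0.00401), and Plin1, Cidec and Lep were at 0. The 4 stromal and endothelial genes tested gave 0 calls by limma and 1 unadjusted p under 0.05, with a median of -0.01, or 0.12 without XYF F7 and 0.06 without XYM 9, and 1 was called lower without XYF F8 or with the length trend removed.

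Small RNA genes were among the largest higher calls, from few reads. Of 102 microRNA entries 13 were called higher and 3 lower, and of 94 small nucleolar RNA entries 6 higher and 5 lower. All 13 and all 6 of those called higher lie within another tested gene, as do 74 of the 102 and 90 of the 94. Of the genes around those 13 and 6, 0 were called higher. Some were higher at an adjusted p under 0.1 but below the fold of 1.5. Some genes around entries not called were called higher, such as Tmem245 around Mir32 (1.29). Mir186 was at 2.5, 0.819, 2.35 and 1.48 RPKM in XYF and 11.5, 4.23, 8.7, 12.4 and 5.91 RPKM in XYM, from 2, 1, 3 and 2 reads and from 13, 6, 12, 16 and 8 reads. The groups did not overlap (1.74, SE 0.66, adjusted p 0.0528), but the call ended without XYF F7 (1.55), XYM 12 (1.62) or XYM 16 (1.59). Zranb2, the splicing factor gene around it, differed by -0.13. Mir103-2 had 0, 1, 1 and 0 reads in XYF and 11, 10, 2, 2 and 5 in XYM (1.69, SE 0.50, adjusted p 0.0193), while Pank2 around it, a gene of coenzyme A synthesis, differed by 0.20. Mir1249 was higher by 1.64 (adjusted p 0.0069), and 5031439G07Rik around it by 0.57 (adjusted p 0.0434). Snord71 and Snord2, which guide the methylation of ribosomal RNA, were higher by 1.65 and 1.39. Their surrounding genes differed by 0.53 for Ap1g1 (adjusted p 0.0058) and by 0.43 for Eif4a2 (adjusted p 0.0235). Which transcripts these few reads came from was not tested, and mature levels were not measured. The mature forms are given from RefSeq on GRCm38.p6, with the seed in capitals, because these were the microRNAs with the largest higher calls. They share no seed.
mmu-miR-186-5p: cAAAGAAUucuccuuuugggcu
mmu-miR-103-3p: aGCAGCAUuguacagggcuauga

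A few pseudogenes were among the clearest lower calls. Bambi-ps1, a transcribed pseudogene, read 10.7, 14, 7.92 and 5.32 RPKM in XYF and 1.76, 1.9, 1.95, 1.77 and 1.47 RPKM in XYM. The XYM mice were nearly equal and all below XYF F9 (-1.85, SE 0.18, adjusted p 2.68e-05), and the XX difference was -2.13. Cyp4b1-ps2 differed by -1.92 (SE 0.38, adjusted p 0.0033) and Gm4184 by -1.60 (SE 0.35, adjusted p 0.00547). Pseudogenes may take reads of related genes, so their levels are uncertain. Rgcc, a regulator of the cell cycle that complement can induce, was at 33, 18.3, 17.7 and 20 RPKM in XYF and 3.72, 6.47, 5.91, 4.11 and 17.6 RPKM in XYM. XYM 9 was next to XYF F8 and the other XYM mice were far lower (-1.59, SE 0.30, adjusted p 0.00295; -1.38 in XX mice).

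The gonad difference itself was tested for a change between XY and XX mice. The limma interaction called 11 of the genes (0.0858%), with a smallest adjusted p of 0.0529, and 2699 had an unadjusted p under 0.05. F2rl1, a receptor that proteases activate, was at 5.01 to 9.37 RPKM in XYF and 4.64 to 8.34 RPKM in XYM (-0.13), against -1.48 in XX mice, an interaction of 1.35 (adjusted p 0.0529). Cd28, the costimulatory receptor of T cells, differed by 0.08 in XY and by -1.27 in XX mice (interaction 1.35, adjusted p 0.0529). Without XYF F9 or XYM 16 the XY difference of Cd28 was -0.07 or -0.01. Ubash3a, which dampens T cell receptor signals, differed by -0.13 and -1.24 (interaction 1.12, adjusted p 0.0529). Nr4a3, a nuclear receptor switched on by antigen receptors, was higher in all XYM than in all XYF mice, which were at 0.195 to 0.502 RPKM (0.80, adjusted p 0.0074), and differed by -0.55 in XX mice (interaction 1.35, adjusted p 0.0844). C4b, lower in XYM, differed by -0.05 in XX mice (interaction -0.92, adjusted p 0.0529). The long noncoding RNA 5430437J10Rik was at 2.21, 1.5, 1.43 and 2.16 RPKM in XYF and 0.54, 1.03, 0.971, 0.473 and 0.72 RPKM in XYM. All XYM mice were lower (-0.69, SE 0.13, adjusted p 0.0031), while XX mice differed by 0.41 (interaction -1.10, adjusted p 0.0529). The XY call of 5430437J10Rik ended with the length trend removed (-0.47), and so did its interaction call. Some of the other called genes named in this report had an XX difference of the sign opposite to XY, none called in XX mice. The XX difference was negative for Mir186 (-0.88), Nrip1 (-0.87), Snord2 (-0.23), Wdfy2 (-0.21), Snord71 (-0.15), Mir1249 (-0.15), Gbp9 (-0.09) and Rel (-0.08). It was positive for Mt1 (0.04), Nxpe5 (0.16), Tnfrsf17 (0.19), Gp9 (0.22) and Ier3 (0.24). The count of interactions depended on single libraries. It was 0 without XXF F1, F2 or F5, XYF F6, or XYM 12 or 16, 1 without XXM 6, 3 without XXF F4, 6 without XXM 2 and 7 without XYF F7, XYF F9 or XYM 13. It was 711 without XYM 15, 730 without XYF F8, 1096 without XXF F3 and 1568 without XYM 9, and 768 without XYF F9 and XYM 9 together.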

How the data were processed

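According to the authors, reads were aligned with Subread to mm10 and counted with featureCounts. The unit of the deposited table is log2 of RPKM plus a pseudocount of 1, with an offset of 0.0001. The authors' edgeR tests were not rerun. Sample records name a NEBNext library kit, the methods a KAPA stranded kit. Whole reads came back for 21317 genes, all those with a read, within 0.05 of a whole number, and summed to 11263738 to 19961975 per XY mouse. Of 27179 genes, 25275 matched RefSeq by Entrez ID. limma (version 3.58.1, R version 4.3.3) took the deposited log2 values of all 19 mice with 1 mean per group and a trended spread. Benjamini-Hochberg adjustment covered the 13703 genes of all chromosomes past the filter. Permutation tests were exact and two-sided.

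Genes in the text come from those chosen by a rule: per direction the 12 largest calls without overlap, 4 receptor segments, up to 4 calls per list and the 4 most abundant calls, with up to 3 most abundant genes per list and 5 interactions. Ighd2-6, chosen as a higher segment, is left out of the text for its few reads. The members and the 33 gene lists were chosen with earlier results of these data known. Lists got no test of their own. Some list members are counted but not reported here by name. Alternatives changed the pseudocount, filter, scaling, fit, thresholds, mice and gene length trend.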

Additional observations from a re-analysis of the deposited data

Results flagged for a closer look

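In 314 groups of values, single genes and list sums in XYF or XYM mice, the gap between the highest or lowest mouse and the next was compared with the range of the group. In 18 the gap passed the value of Dixon's test for 4 or 5 mice. Chance alone gives this in about 1 in 20 groups. XYM 9 was the mouse in 9 of them, XYF F9 in 5, XYM 15 in 3 and XYF F8 in 1.

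XYF F9 was far above its group in neutrophil granule genes (gap 0.83 of the range) and in mast cell and basophil genes (0.869), and far below it in heat shock genes (0.951) and Traj27 (0.836). Its other group, Snord71, rests on 1 read against 0 in the rest and shows no such distance. XYF F8 was far above its group in Hsd17b7 (0.851). XYM 9 was far above its group in neutrophil granule genes (0.888), monocyte genes (0.825), mast cell and basophil genes (0.819), proliferation genes (0.803) and Ighg3 (0.729). XYM 9 was far below it in Spib (0.736), Klrk1 (0.789), Iigp1 (0.722) and interferon gamma genes (0.75). XYM 15 was far above its group in Hspe1 (0.725), heat shock genes (0.791) and cytosolic ribosomal protein genes (0.775).

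The gonad difference of 11 genes differed between XY and XX mice by the limma interaction. Its size was negative for 5430437J10Rik (-1.10), Nxpe5 (-1.04), C4b (-0.92) and Nr4a1 (-0.90). It was positive for Esyt2 (0.83), Znrf2 (0.95), Fasl (0.96), Ubash3a (1.12), Nr4a3 (1.35), Cd28 (1.35) and F2rl1 (1.35). With the length trend removed the interactions of Esyt2 and 5430437J10Rik were not called. Nxpe5, Nr4a1, Esyt2, Znrf2 and Fasl were named after their values were seen.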

How the results depend on the processing

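Of the named genes, 108 were called. Of these, 72 kept their sign and call under every alternative with a value per gene, 78 in those that kept all mice or left out XYF F9 and XYM 9 together, and 80 whichever single XY mouse was left out. No called gene changed sign. The gene length alternatives were chosen after seeing the data. The cause of the changes was not tested.

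The count called higher was 556 with the length trend removed and 3073 with no fold threshold, and 639 to 1383 when 1 mouse was left out. The count called lower was 2230 with no fold threshold, and 673 to 1379 when 1 mouse was left out. Both lowest counts were without XYF F6, the smallest library, and both highest without XYM 9. With a pseudocount of 0.5 in place of 1, 1218 genes were called higher and 1219 lower, and with 0.1, 1396 and 1301. The interaction count was 6 with a pseudocount of 0.1, 6 with no filter, 4 with limma-voom, 1753 with array weights, 768 without XYF F9 and XYM 9, 101 with the length trend also removed, and 0 with an adjusted p under 0.05. It was 0 to 1568 when 1 mouse was left out.

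Among genes not called, Cd4 was -0.02 after median ratio rescaling, -0.08 with the length trend removed and -0.06 to 0.28 when 1 mouse was left out. Cd28 was -0.16 with the length trend removed, -0.17 without XYF F9 and XYM 9 as well and -0.07 to 0.23 when 1 mouse was left out. Ighm was 0.14 after quantile normalization. Ngp was -1.30 to 0.24 when 1 mouse was left out.

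Some calls also ended under single settings. With a pseudocount of 0.1 these were Mir186 and Ighg2c. With no filter they were Ighg2c, Fcer1a, Hsph1, Hspe1, Ndufa2 and Nrip1, with quantile normalization Ighg2c, Hspe1 and Clock, and with limma-voom Ighg2c and Nrip1. In the 9 XY mice alone they were Traj49, Ighg2c, Klrk1, Klra8, Il1rl1, Pf4, Fcer1a, Rrm2, Cdk1, Ccnb2, Ier3, Hspe1 and Nrip1. With array weights they were Mir186, Ighg2c, Il1rl1, Clec4a3, Itgae, Fcer1a, Hsph1, 5430437J10Rik and Mir144, while S100a8 and Rps14 were called.

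The small RNAs named as called higher rest on few reads a mouse, and so do Traj27 and Traj49, with 2 reads in their lowest mice. Igkj3, also a short segment, had 39 to 574 reads a mouse.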
